A study of Saccharomyces cerevisiae with 25 samples.

Results

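The response to a single amino acid change in a glucose sensor was measured as poly-A RNA levels in the yeast strain *RGT2(V539I)* and in its wild type, YFA1131, with 5 libraries each, 10 of the 25 libraries sequenced for 5 strains. Libraries were chosen by their labelled strain alone. All strains were haploid *MATa* derivatives of the laboratory strain BY (S288C background) with the markers his3Δ1 leu2Δ0 met15Δ0 ura3Δ0, grown in YNB medium with glucose. Both strains descend from 1 strain in which a KanMX cassette replaced *RGT2*: CRISPR-Swap put the BY allele back to give YFA1131, and the BY allele with 1 valine changed to isoleucine to give *RGT2(V539I)*. Each genotype is therefore represented by 1 strain, and its 5 libraries come from separate cultures. A second wild type, YFA1130, in which the BY sequence had been put back at *FAA4* and not at *RGT2*, and strains edited at *OAF1* and at *OLE1* give further levels of comparison.

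Rgt2 is a membrane protein that resembles hexose transporters but works as a receptor for glucose. When glucose binds, the signal leads to the destruction of Mth1 and Std1, 2 corepressors that the DNA-binding repressor Rgt1 needs, and Rgt1 leaves the promoters of genes for hexose transporters (*HXT*). In a second pathway, glucose keeps the repressor Mig1 active, which with Mig2 and Mig3 holds down genes for other carbon sources, for respiration and for high-affinity uptake. Yeast given ample glucose ferments it and keeps the genes of the mitochondrial respiratory chain low, while the Hap2/3/4/5 complex activates many of them when glucose runs out.

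The edited site is shown first because it is the intended difference between the strains. On the sacCer3 (R64) reference, *RGT2* (YDL138W) spans positions 213351 to 215642 of chromosome IV, on the forward strand. The substitution G214965A, numbered along the chromosome, changes the codon of that valine, in capitals, in the stretch chrIV:214945-214987.
YFA1131: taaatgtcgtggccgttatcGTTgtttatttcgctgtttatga
RGT2(V539I): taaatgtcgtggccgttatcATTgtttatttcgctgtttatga
The *RGT2* transcript itself stood at 46.4, 38.2, 37.9, 38.8 and 42.6 CPM (counts scaled to the size of the library) in pairs 1 to 5 of *RGT2(V539I)*, and at 46.7, 49.1, 45.3, 41.7 and 44.1 in YFA1131, where a pair holds the libraries of both strains that share an RNA isolation batch. The edited strain was the lower member in 5 of 5 pairs, and the ranges overlapped. The log2 fold change was -0.10 (SE 0.07) with an adjusted p of 0.965. The neighbours *ARF2* (0.08, adjusted p = 0.941) and *RPL35B* (-0.00, adjusted p = 0.9995) did not pass the test either.

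Total counts were 10034327 to 12444018 per library. The reads for *LEU2*, *URA3* and *MET17*, deleted in this background, were 0 in all 10 libraries, while *HIS3*, whose his3Δ1 allele is a partial deletion, was at 91.7 to 125 CPM. *STE2*, the pheromone receptor of *MATa* cells, was at 1077 to 1323 CPM, and *STE3*, its counterpart in the other mating type, at no more than 4.92. The pheromone genes *MFA1* and *MFA2*, which *MATa* cells use, are listed at 0, so the check rests on *STE2*. No 2 libraries of a strain agreed within sampling noise.

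Across all genes, 61 of 5713 tested differed between the strains at a false discovery rate (FDR) of 10%, which is 1.07% of genes, with 49 higher in *RGT2(V539I)* (0.858%) and 12 lower (0.21%). At an unadjusted p under 0.05 there were 385. Most changes were small: 48 of the 61 were under 1.5-fold. The direction was the same in 5 of 5 pairs for 45 of the 61 and in 4 of 5 for 13. It held in fewer pairs for *CIT2* and *YKR075C* (3 each) and for *STD1* (2). The CPM ranges of both strains were apart for 21 of the 61, against 76 of all genes tested (1.33%). Of the 49 genes called higher, 45 had their highest mean of the 5 strains in *RGT2(V539I)* and 40 had their lowest in YFA1131. The 61 genes were chosen by the difference between those 2 strains. The counts of pairs, of ranges apart and of strain means therefore all follow in part from the choice.

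The number of calls depended on single libraries. It was 36, 19 or 24 without the *RGT2(V539I)* library of pair 1, 2 or 4, and 17 or 20 without the YFA1131 library of pair 4 or 5. Pair 5 joins cultures of different harvest batches (2 and 1), whereas pairs 1 to 4 each come from 1 harvest batch, and 16 genes were called without pair 5. Without each of the 10 libraries in turn, 12 genes kept their call: *HXT1*, *HXT4*, *HXT7*, *MIG3*, *HXK1*, *CYC1*, *CYT1*, *COR1*, *QCR2*, *QCR7*, *TIM9* and *POR1*.

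Genes under Rgt1 and the glucose sensors moved in both directions. Of 9 hexose transporter genes tested among 17, 3 were higher (*HXT4*, *HXT7* and *HXT2*, which encode transporters of moderate to high affinity) and 1 was lower (*HXT1*, for a low-affinity transporter). Over all genes tested, 0.858% were called higher and 0.21% lower. *HXT4* stood at 380, 360, 408, 378 and 343 CPM in pairs 1 to 5 of *RGT2(V539I)*, and at 161, 86.4, 116, 96.3 and 131 in YFA1131. Every *RGT2(V539I)* library lay far above the highest YFA1131 library, and the log2 fold change was 1.61 (SE 0.11, adjusted p = 1.16e-07). Against YFA1130 it was 1.60 (SE 0.11). The estimated counts of *HXT4* were fractional in each of the 25 libraries, a mark of reads shared between similar genes.

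For *HXT7* the *RGT2(V539I)* libraries gave 221, 129, 209, 323 and 194 CPM and the YFA1131 libraries 87.2, 38.4, 48.4, 101 and 158 in pairs 1 to 5. The edited strain was higher in each pair, although pair 5 of YFA1131 exceeded pair 2 of *RGT2(V539I)*, and the log2 fold change was 1.29 (SE 0.18, adjusted p = 0.00169). Reads are divided with the near-identical *HXT6*, so the sum of both is the safer value: 236, 136, 223, 345 and 205 CPM against 110, 43.9, 56.4, 111 and 167. *HXT2* was at 118, 105, 90.2, 78.9 and 111 CPM against 34.0, 47.7, 40.9, 105 and 62.2. It was higher in pairs 1, 2, 3 and 5 and lower in pair 4, where the YFA1131 library of harvest batch 1 was the highest of that strain. Its log2 fold change of 0.90 (SE 0.22, adjusted p = 0.0767) was 1.67 without harvest batch 1, 1.33 without the *RGT2(V539I)* library of pair 4 and 1.29 without the YFA1131 library of pair 4, and the call was lost without any 1 of the other 8 libraries.

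*HXT1* gave 913 to 1060 CPM in *RGT2(V539I)* and 1215 to 1658 in YFA1131, with no overlap (log2 fold change -0.55, SE 0.07, adjusted p = 0.000605). Against YFA1130 it was at -0.31 (SE 0.07, adjusted p = 0.0775). The estimated counts of *HXT1* were fractional in 24 of the 25 libraries. *HXT3*, the most abundant of the family, had a log2 fold change of 0.13 (SE 0.05) and an adjusted p of 0.594. Summed over the family, transcript levels were 5249 to 6272 CPM and 5100 to 6147 CPM, ranges that overlapped almost wholly.

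**Figure D1:**
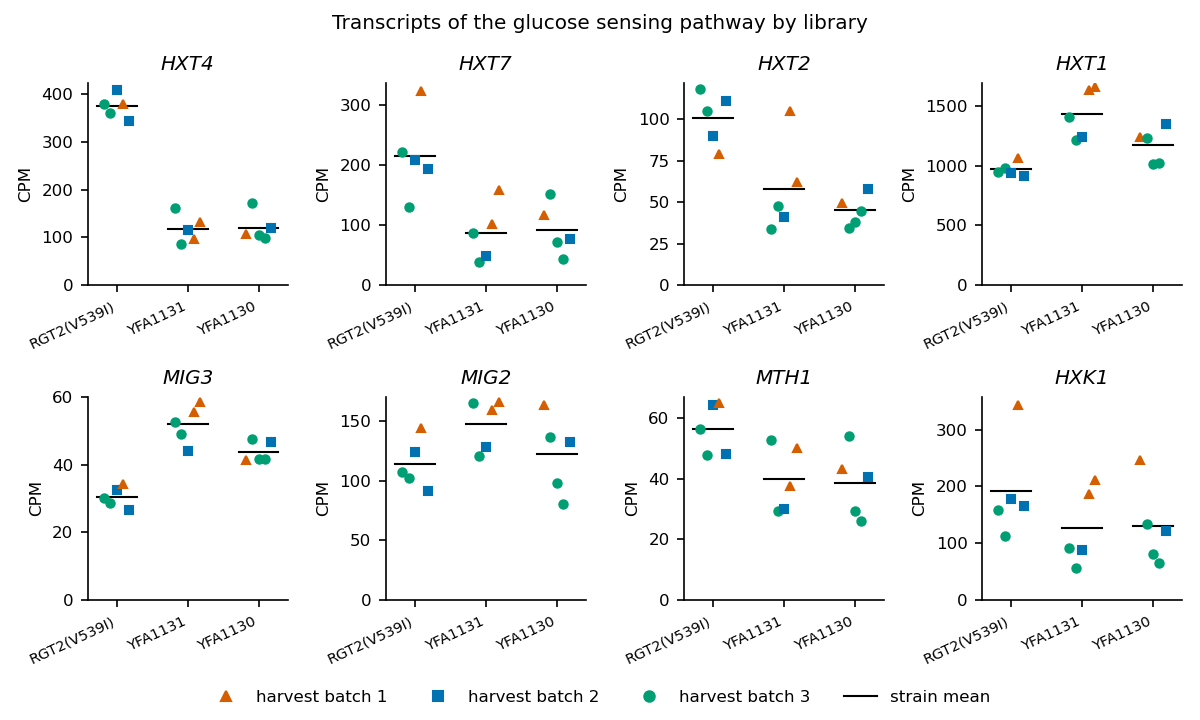
CPM of 8 genes of the glucose pathways in each library of *RGT2(V539I)*, YFA1131 and YFA1130 (vertical axes, from 0), with the harvest batch as colour and shape and the strain mean as a line. *HXT4* lies at 343 to 408 CPM in *RGT2(V539I)* and at no more than 161 in YFA1131, while *HXT1* and *MIG3* lie below every YFA1131 library.

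The repressor genes *MIG2* and *MIG3*, which are themselves induced through the glucose sensors, were lower. *MIG3* stood at 30.3, 28.7, 32.5, 34.4 and 26.6 CPM in *RGT2(V539I)* and at 52.7, 49.0, 44.1, 55.7 and 58.5 in YFA1131. These ranges do not overlap, and the log2 fold change was -0.77 (SE 0.08, adjusted p = 4.49e-05). Of the 61 genes, *MIG3* and *HXT4* were the 2 that kept their call in every alternative tried. *MIG2* fell less, by 0.33 on the log2 scale (SE 0.07, adjusted p = 0.0495), from 121 to 166 CPM in YFA1131 to 91.4 to 144, and lost its call without 5 of the 10 libraries. Against YFA1130 it was at -0.12 (adjusted p = 0.829), and *MIG3* at -0.53. *MIG1*, the founder of this family, had a log2 fold change of 0.02.

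*MTH1*, for a corepressor, was at 56.3, 48.0, 64.3, 65.1 and 48.0 CPM in *RGT2(V539I)* against 52.9, 29.4, 29.9, 37.7 and 50.1 in YFA1131. It was higher in pairs 1 to 4 and lower in pair 5, with a log2 fold change of 0.46 (SE 0.10, adjusted p = 0.0495), and the call was lost without 4 of the 10 libraries. *STD1* had a log2 fold change of -0.16 (SE 0.04, adjusted p = 0.0853), but its libraries overlapped (70.7 to 86.9 against 71.5 to 96.2 CPM) and it was lower in only 2 of 5 pairs. Its call was lost without 9 of the 10 libraries. Of the 8 genes of the sensing pathway, 1 was thus called higher and 1 lower. The other 6, among them *SNF3*, the second sensor, and *RGT1*, were not called. Of 21 genes of glucose repression, 1 was called higher (against 0.858% of all genes tested) and 2 lower, *MIG2* and *MIG3* (against 0.21%). The higher one was *ADR1*, an activator of genes for ethanol use. It was at 32.8 to 44.2 CPM against 26.5 to 31.5 (0.37, SE 0.08, adjusted p = 0.0528). Against YFA1130 its log2 fold change was 0.04, and its call was lost without 5 of the 10 libraries. The kinase Snf1 and its partners were not called.

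Stretches upstream of the genes that moved are shown because CGGANNA is the sequence Rgt1 is known to bind. Copies on either strand are in capitals, and each stretch reads towards the start codon on the gene's own strand.
HXT4, chrVIII:289184-289283, reverse strand: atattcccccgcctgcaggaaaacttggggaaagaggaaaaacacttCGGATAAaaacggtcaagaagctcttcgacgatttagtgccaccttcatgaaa
HXT2, chrXIII:287619-287718, forward strand: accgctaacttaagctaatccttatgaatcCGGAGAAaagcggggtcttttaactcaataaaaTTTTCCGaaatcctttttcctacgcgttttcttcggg
HXT1, chrVIII:293018-293117, reverse strand: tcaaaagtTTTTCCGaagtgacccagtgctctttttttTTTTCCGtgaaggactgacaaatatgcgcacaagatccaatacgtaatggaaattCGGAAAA
MIG3, chrV:212216-212315, reverse strand: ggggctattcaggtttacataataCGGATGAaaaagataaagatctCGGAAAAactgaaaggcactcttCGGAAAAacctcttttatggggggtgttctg
MIG2, chrVII:95484-95583, forward strand: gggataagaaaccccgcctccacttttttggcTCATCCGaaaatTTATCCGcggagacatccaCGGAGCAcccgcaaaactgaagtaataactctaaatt
In the 600 bases before the start codon, *MIG2* and *MIG3* held 5 copies each, *HXT1* 4, *HXT2* 3, *HXT4*, *MTH1* and *STD1* 2 each, *HXK1* and *GPH1* 1 each, and *HXT7* none. Of 6018 protein-coding genes, 47.9% held at least 1 copy and 3.71% held 3 or more. Genes with several copies thus include both higher (*HXT2*, *HXT4*, *MTH1*) and lower ones (*HXT1*, *MIG2*, *MIG3*).

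The respiratory chain was the pathway with the most calls. Of its 27 genes, 15 were higher (55.6% against 0.858% of all genes tested) and none was lower. A positive log2 fold change was found for 26 (96.3% against 45.2% of all genes tested). The median was 0.29, against -0.01 over all genes tested, and it was positive in each of the 5 pairs (0.11 to 0.43). The changes of the called members were small, 1.17-fold to 1.52-fold. Within harvest batches 1, 2 and 3 the medians were 0.42, 0.34 and 0.28. Batch 1 held 1 *RGT2(V539I)* library and batch 2 held 1 YFA1131 library, so the first 2 medians lean on single libraries.

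Complex III, which passes electrons from ubiquinol to cytochrome c, was called most fully, with 7 of 9 genes higher. *QCR2*, for a core subunit, stood at 203, 185, 215, 268 and 224 CPM in *RGT2(V539I)* and at 158, 165, 176, 204 and 218 in YFA1131. Both strains reached their highest levels in harvest batch 1, so the ranges overlapped, but the edited strain was higher in 5 of 5 pairs. The log2 fold change was 0.29 (SE 0.04, adjusted p = 0.00169). *COR1*, the other core subunit, was higher by 0.29 (SE 0.05, adjusted p = 0.0150), at 268 to 356 CPM against 229 to 280. *CYT1*, for cytochrome c1, was at 72.1, 66.6, 68.3, 102 and 76.9 CPM against 50.5, 54.5, 52.8, 71.6 and 80.3. It was higher in pairs 1 to 4 and a little lower in pair 5 (log2 fold change 0.40, SE 0.06, adjusted p = 0.00443).

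The remaining called genes of this complex were *QCR7*, *RIP1* (the Rieske iron-sulphur protein), *QCR6* and *QCR9*, with log2 fold changes of 0.32, 0.30, 0.22 and 0.41. *QCR9*, a low transcript, was at 9.61 to 13.7 CPM against 6.71 to 9.84 (SE 0.10, adjusted p = 0.0798), and its call was lost without 9 of the 10 libraries. *CYC1*, which encodes the main form of cytochrome c, had the largest change of the chain against YFA1131. Its libraries were at 22.4, 21.4, 28.5, 24.7 and 21.8 CPM against 11.1, 12.7, 16.3, 19.4 and 19.6, without overlap. The log2 fold change was 0.61 (SE 0.10, adjusted p = 0.00443). Against YFA1130, whose libraries overlapped with the edited ones at 16.3 to 23.3 CPM, *CYC1* was at 0.27 (adjusted p = 0.479). *CYC7*, the form made when oxygen is low, was near the floor of detection and had a log2 fold change of -0.13.

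In complex IV, cytochrome c oxidase, 5 of 9 genes were higher: *COX4*, *COX5A*, *COX6*, *COX7* and *COX13*, by 0.23 to 0.48 on the log2 scale. *COX7* stood at 11.01 to 12.6 CPM in *RGT2(V539I)* and at 7.60 to 8.53 in YFA1131, without overlap (0.48, SE 0.10, adjusted p = 0.0410). This call was lost without 4 of the 10 libraries. Against YFA1130, which overlapped with the edited strain at 8.92 to 11.4 CPM, *COX7* was at 0.13 (adjusted p = 0.844). *COX5B*, the alternative to *COX5A* at low oxygen, had a log2 fold change of 0.02. In complex II, succinate dehydrogenase, *SDH2* (0.31) and *SDH3* (0.25) were higher and *SDH1* and *SDH4* were not called. Yeast has no complex I, and its 3 single-protein NADH dehydrogenases *NDI1*, *NDE1* and *NDE2* had log2 fold changes of 0.28, 0.33 and 0.23 without a call. *NDI1* lay just outside the threshold (adjusted p = 0.104). None of 5 genes for respiratory regulators was called, at a median log2 fold change of 0.003. The lowest value was that of *HAP1* (-0.04, SE 0.05, adjusted p = 0.991). The highest was that of *HAP5* (0.19, SE 0.09, adjusted p = 0.760).

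**Figure D2:**
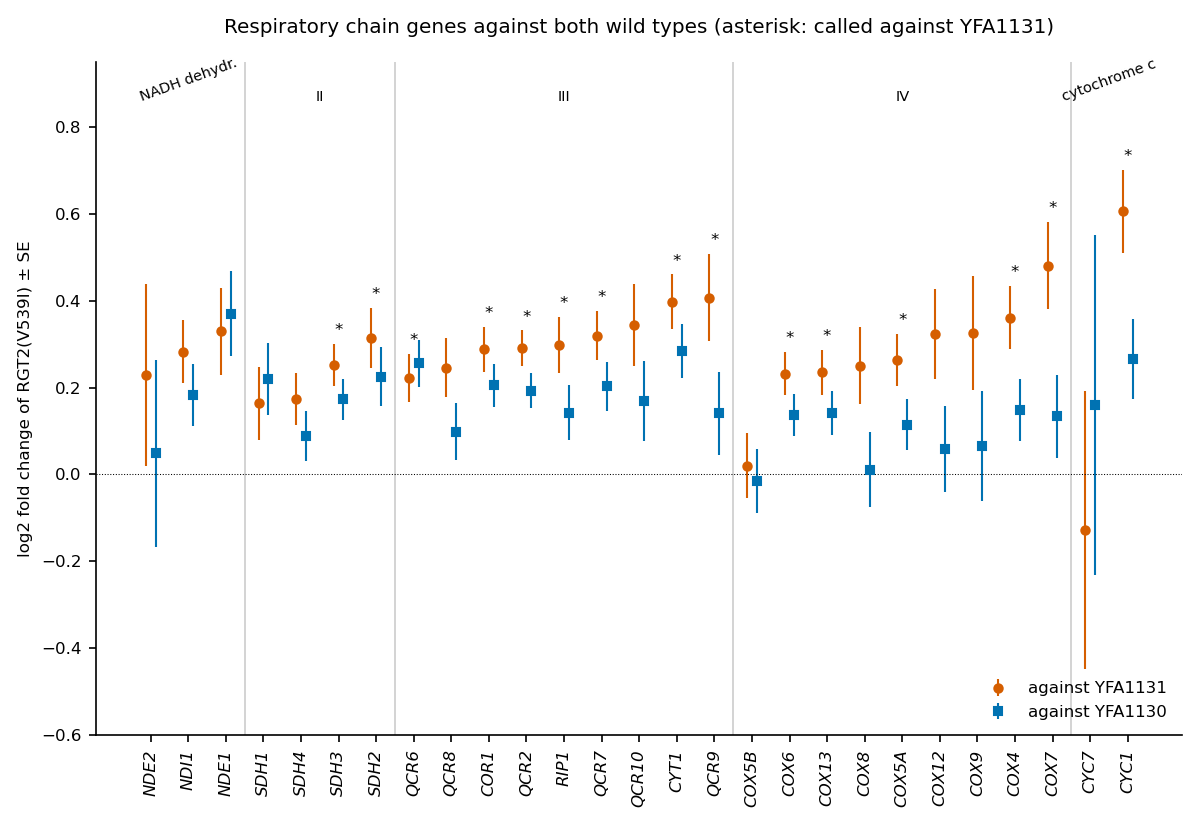
Log2 fold changes of the 27 respiratory chain genes (vertical axis) in *RGT2(V539I)* against YFA1131 (circles) and against YFA1130 (squares), grouped by complex. Bars give the standard error derived from the test's F statistic. The medians are 0.29 and 0.15, and the 15 genes with an asterisk passed the FDR against YFA1131.

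The choice of wild type changed the size of this difference. Against YFA1130 the median of the respiratory chain was 0.15 and 3 genes were called, all higher. Over all genes tested, 15 were called higher in that comparison, and 0.403% in either direction. The 15 respiratory chain genes called against YFA1131 all had a positive log2 fold change there too, of 0.11 to 0.28. YFA1131 itself lay below YFA1130, with a median difference of -0.11. Both comparisons use the same *RGT2(V539I)* libraries, so they are not independent.

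Summed over the 27 genes, the levels were 2031, 1873, 2254, 2550 and 2149 CPM in pairs 1 to 5 of *RGT2(V539I)*, 1591, 1579, 1726, 1868 and 2060 in YFA1131, and 1620 to 2116 in YFA1130. The edited strain was higher in every pair, while its pair 1 and pair 2 libraries lay within the YFA1131 range. The libraries of harvest batch 1 were the highest in each of these 3 strains. Without harvest batch 1, the median against YFA1131 was 0.15 and 2 genes were called. Without the *RGT2(V539I)* library of pair 2 there were 8, and 5 without that of pair 4, without either YFA1131 library of harvest batch 1 (pairs 4 and 5), and without pair 5 as a whole. The part of the harvest batch in the difference was not tested beyond these values.

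**Figure D3:**
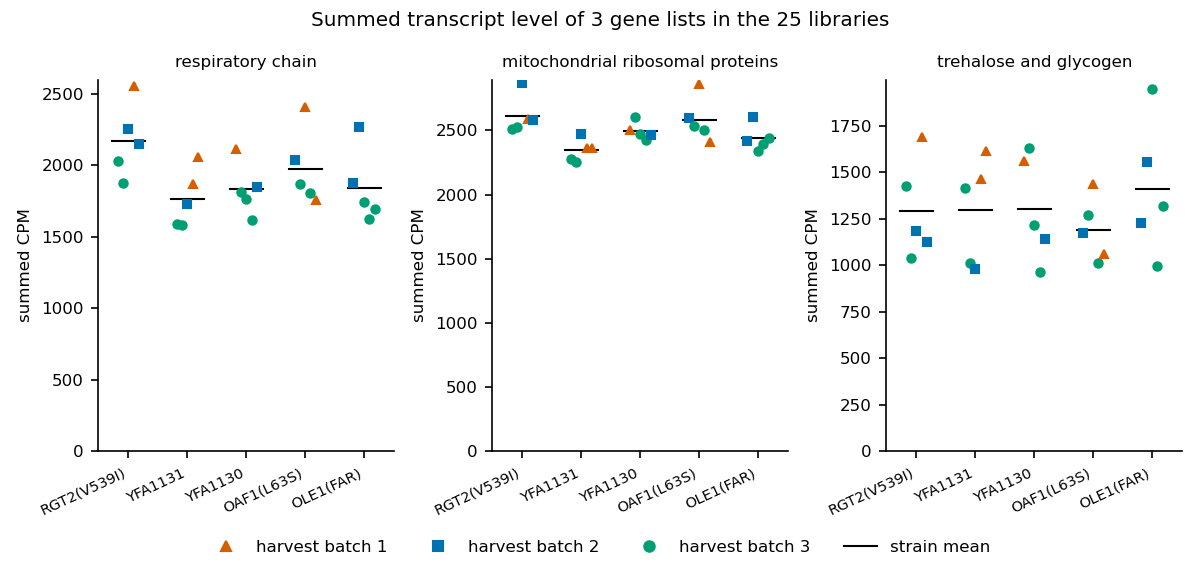
Summed CPM of 3 gene lists (vertical axes, from 0) in all 25 libraries by strain, with the harvest batch as colour and shape and the strain mean as a line. The respiratory chain sums lie at 1873 to 2550 CPM in *RGT2(V539I)* and at 1579 to 2060 in YFA1131, whereas the trehalose and glycogen sums of both strains overlap.

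The genes of the ATP synthase, the last step of respiration, leaned the same way with few calls. Of 17, 16 had a positive log2 fold change (94.1% against 45.2% of all genes tested). Calls were made for 2, both higher (11.8% against 0.858%), and the median was 0.19. *INH1*, for the peptide that stops the enzyme from running backwards, was at 9.73 to 18.6 CPM against 7.16 to 11.7 (log2 fold change 0.53, SE 0.13, adjusted p = 0.0752). *ATP5*, for a subunit of the stalk, was at 124 to 154 CPM against 114 to 130 (0.22, SE 0.05, adjusted p = 0.0704). The calls were lost without 9 of the 10 libraries for *INH1* and 5 for *ATP5*, and no gene of the list was called without the library of pair 2 or 4 of *RGT2(V539I)* or of pair 4 or 5 of YFA1131. Against YFA1130 none was called and the median was 0.11. *PET9* encodes the main carrier that exchanges ADP and ATP across the inner membrane. It was the only 1 of 26 mitochondrial carrier genes that passed, against 0.858% of all genes tested called higher. It was at 488, 508, 534, 636 and 576 CPM against 402, 449, 480, 509 and 558 (0.26, SE 0.05, adjusted p = 0.0419), higher in 5 of 5 pairs, with a call lost without 3 of the 10 libraries, and its log2 fold change against YFA1130 was 0.27.

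Mitochondrial ribosomal protein genes (those named *MRP*) had 4 calls among 55, all higher: *MRPL23*, *MRPL1*, *MRPL35* and *MRP51*. That is 7.27% against 0.858%. A positive log2 fold change was seen for 54 (98.2% against 45.2% of all genes tested). The median was 0.12, with values of 0.11 to 0.20 in the 5 pairs. *MRPL23* stood at 45.7, 48.2, 58.8, 53.0 and 47.5 CPM in *RGT2(V539I)* against 34.7, 37.6, 43.0, 42.0 and 43.1, without overlap. Its log2 fold change was 0.32 (SE 0.06, adjusted p = 0.0185). The other 3 were higher by 0.15 to 0.21. None of the 55 was called without the *RGT2(V539I)* library of pair 2 or without the YFA1131 library of pair 4, and *MRP51* and *MRPL35* lost their calls without 10 and 9 of the 10 libraries. Against YFA1130 the median was 0.03, none was called, and *MRP51* was at -0.01. YFA1131 was 0.11 below YFA1130 in the median. By contrast, the 134 genes for cytosolic ribosomal proteins had a median of 0.00 and no call. The smallest p there were those of *RPS28A* (0.13, adjusted p = 0.713) and *RPL37B* (0.09, adjusted p = 0.912).

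Of the 20 called genes in none of the 27 lists, several encode other mitochondrial proteins. They were grouped after their values were seen. The higher ones were *RSM23* and *RSM28* (small subunit of the mitochondrial ribosome), *MEF1* (its elongation factor), *RPM2* (a subunit of mitochondrial RNase P), *MAM33* (a matrix protein), *POR1* (the outer membrane channel), *TIM9* (a chaperone for inner membrane proteins) and *COX17* (copper delivery to cytochrome c oxidase). *TIM9* stood at 13.9 to 17.9 CPM against 9.75 to 12.3, without overlap (log2 fold change 0.51, SE 0.09, adjusted p = 0.0155). *POR1* differed by 0.21 against each wild type, whereas *TIM9*, *MRA1* and *COX17* were at 0.21, 0.22 and 0.23 against YFA1130, and *MEF1* and *RSM23* at 0.05 and 0.03, none of these 5 with a call there. *RSM28*, *RPM2* and *MAM33* were at 0.08, 0.19 and 0.17 against YFA1130, also without a call. The call of *MAM33* against YFA1131 was lost without each of the 10 libraries. Those of *RSM23* and *RSM28* were lost without 9, *RPM2* without 6, *MEF1* without 4 and *MRA1* without 3. *COX17* was at 10.8 to 16.4 CPM against 9.45 to 11.2 (0.42, SE 0.10, adjusted p = 0.0853, lost without 8 of the 10 libraries). *YPR010C-A*, named *MRA1* in RefSeq, was at 9.45 to 14.8 CPM against 6.01 to 9.76 (0.58, SE 0.13, adjusted p = 0.0495). *HOT13*, a zinc-binding protein of the intermembrane space, was lower (-0.41).

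CCAAT, the sequence bound by the Hap2/3/4/5 complex, was looked for on both strands of the 300 bases before the start codon. It was found in 11 of the 15 called respiratory chain genes, in 10 of the 12 not called, in 16 of 17 ATP synthase genes and in 18 of 55 mitochondrial ribosomal protein genes, against 41.7% of 6020 genes. The stretches of 3 called genes are shown, with the motif in capitals, as examples of both orientations.
QCR2, chrXVI:919168-919227, forward strand: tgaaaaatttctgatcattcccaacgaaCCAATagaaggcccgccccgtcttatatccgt
QCR7, chrIV:1496698-1496757, reverse strand: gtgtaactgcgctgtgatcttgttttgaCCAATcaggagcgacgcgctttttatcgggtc
COX7, chrXIII:779258-779317, reverse strand: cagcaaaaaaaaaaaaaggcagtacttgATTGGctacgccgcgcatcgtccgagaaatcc
*CYC1*, *CYT1*, *COR1* and *COX4* held no CCAAT in this window. A match describes the letters only.

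Other carbon metabolism changed at single genes, and over all genes tested 0.858% were called higher and 0.21% lower. In the citric acid cycle of the mitochondrion 1 of 13 genes was called, *LSC2* for a subunit of succinyl-CoA ligase, at 144 to 182 CPM against 119 to 168 (0.18, SE 0.04, adjusted p = 0.0719), a call lost without 7 of the 10 libraries. The median of the cycle was 0.08. *CIT2*, the citrate synthase of peroxisomes, was the 1 call among 13 genes of the glyoxylate cycle and gluconeogenesis, and it was lower by the fit (-0.25, SE 0.06, adjusted p = 0.0495). Its libraries were at 350, 240, 273, 185 and 213 CPM against 441, 264, 280, 135 and 196, lower in pairs 1 to 3 and higher in pairs 4 and 5. With only the 10 libraries of both strains its sign turned (0.02).

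None of the 25 glycolysis and fermentation genes was called. Only 3 had a positive log2 fold change (12% against 45.2% of all genes tested), at a median of -0.04. The smallest p were those of *TDH2* (-0.14, SE 0.04, adjusted p = 0.299) and *ENO2* (-0.11, SE 0.05, adjusted p = 0.594). Among the 4 hexose kinase genes, *HXK1*, which is kept low on glucose, was higher, and *HXK2*, the kinase used on glucose, had a log2 fold change of -0.02. *HXK1* stood at 158, 112, 178, 343 and 166 CPM in *RGT2(V539I)* against 90.7, 56.5, 86.8, 187 and 211 in YFA1131. The harvest batch 1 cultures (pair 4 in both strains and pair 5 of YFA1131) were the highest of each strain. Within harvest batches 1, 2 and 3 the edited strain was higher by 0.79, 0.99 and 0.89 on the log2 scale. Batch 1 held 1 *RGT2(V539I)* library and batch 2 held 1 YFA1131 library, so the first 2 values lean on single libraries. The fit gave 0.71 (SE 0.11, adjusted p = 0.00419). *YFR052C-A*, from general knowledge a doubtful reading frame overlapping *HXK1*, was also higher (0.73). It has no position in the RefSeq table, its counts were whole in each of the 25 libraries, and whether it shares reads with *HXK1* was not tested.

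Carbon storage had 1 call. Of 22 trehalose and glycogen genes, 1 was called higher, against 0.858% of all genes tested. Positive log2 fold changes were seen for 9 (40.9% against 45.2% of all genes tested), with a median of -0.02 in the fit. Without the fit, medians within harvest batches 1, 2 and 3 were 0.15, 0.27 and 0.04, and those of the pairs ran from -0.48 (pair 5) to 0.39 (pair 3). The call was *GPH1*, glycogen phosphorylase, the enzyme that breaks glycogen down. Its libraries were at 28.1, 20.1, 30.7, 73.2 and 39.5 CPM against 16.7, 14.4, 21.04, 49.2 and 49.1. It was higher in pairs 1 to 4 and lower in pair 5, the pair of unlike harvest batches. Within harvest batches 1, 2 and 3 the differences were 0.57, 0.73 and 0.61. All values of batch 1 rest on 1 *RGT2(V539I)* library, and those of batch 2 on 1 YFA1131 library. The fit gave 0.59 (SE 0.14, adjusted p = 0.0767), a call lost without 7 of the 10 libraries. Against YFA1130 the log2 fold change was 0.35. The glycogen synthases *GSY1* (0.15) and *GSY2* (0.08) were not called, and the 4 genes of trehalose synthesis all had negative values, -0.22 to -0.08. Summed levels of the list were highest in harvest batch 1 in both strains, at 1692 CPM in the *RGT2(V539I)* library of that batch and 1463 and 1616 in the YFA1131 libraries, though the YFA1131 library of pair 1, from batch 3, reached 1417.

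**Figure D4:**
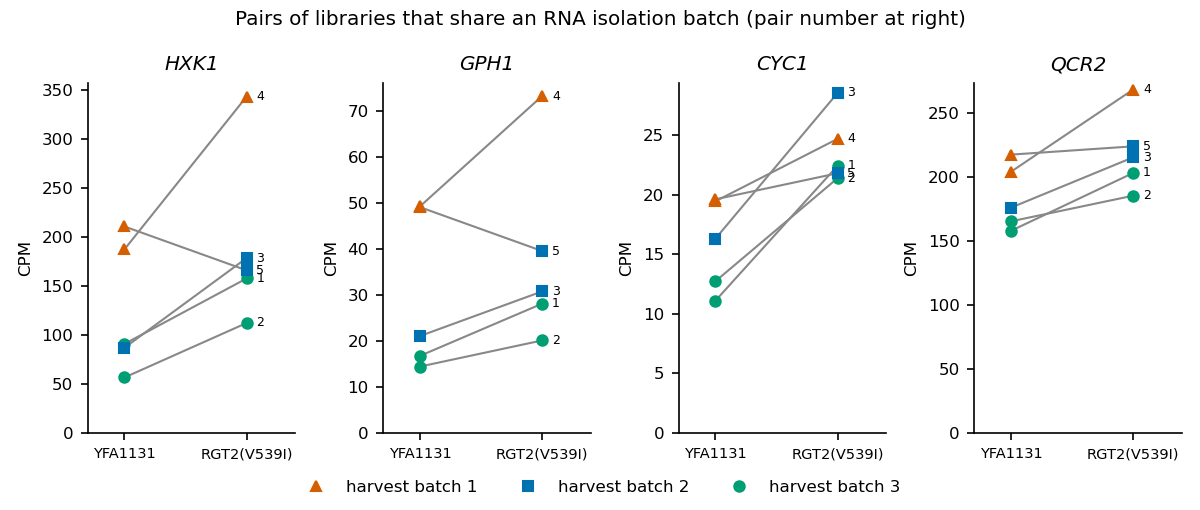
CPM of *HXK1*, *GPH1*, *CYC1* and *QCR2* (vertical axes, from 0) in the libraries of YFA1131 and *RGT2(V539I)*, joined where they share an RNA isolation batch, with the pair number at the right and the harvest batch as colour and shape. *HXK1* and *GPH1* are higher in *RGT2(V539I)* in pairs 1 to 4 and lower in pair 5.

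The stress response, which shares regulators with storage, had 1 call among 38 genes, against 0.858% of all genes tested called higher. This was *PRX1*, a mitochondrial peroxiredoxin. It was at 61.0, 58.6, 79.1, 90.5 and 63.2 CPM against 50.5, 46.7, 51.9, 67.6 and 79.7 (0.28, SE 0.05, adjusted p = 0.0174), higher in pairs 1 to 4. The median of the list was 0.02. None of 19 genes for glycerol and the pentose phosphate pathway was called, with *GPD1* (-0.24, adjusted p = 0.709) and *GPD2* (-0.15, adjusted p = 0.706) nearest.

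Transport apart from hexoses was little changed. The shares called over all genes tested were 0.858% higher and 0.21% lower. *MAL33*, the maltose activator, was the 1 call among 19 genes for other sugars, at 12.7 to 13.8 CPM against 8.31 to 12.04 (0.40, SE 0.10, adjusted p = 0.0767), and 0.42 against YFA1130, a call lost without 7 of the 10 libraries. Its estimated counts were fractional in each of the 25 libraries, a mark of reads shared between similar genes. *ENB1*, a carrier of iron bound to enterobactin, was the 1 call among 34 phosphate, sulfate and metal transporters, at 49.2 to 62.7 CPM against 66.1 to 81.3 (-0.26, SE 0.07, adjusted p = 0.0913). Its groups did not overlap, but against YFA1130 it was at -0.08, and the call was lost without 8 of the 10 libraries.

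No gene was called among 28 amino acid and ammonium transporters (median -0.07, smallest p for *BAP3*, -0.12, adjusted p = 0.299, and *DIP5*, -0.22, adjusted p = 0.351). The same held for 16 nucleobase and vitamin transporters (median -0.06, *NRT1*, 0.11, and *BIO5*, -0.85, adjusted p = 0.594 each) and for 20 drug and weak acid exporters (median -0.06, *QDR3*, -0.15, adjusted p = 0.348, and *ATR1*, -0.20, adjusted p = 0.427). *BIO5*, a carrier of a biotin precursor, was set by 1 library, at 39.8 CPM in pair 1 of YFA1131 against 1.97 to 11.8 in the other 4. The biosynthetic lists had no call either: amino acid synthesis (63 genes, median -0.02, *HIS7* and *SER3* with adjusted p of 0.890 and 0.941) and fatty acid and sterol synthesis (38 genes, median 0.01, *ECM22* and *ERG26* with adjusted p of 0.429 and 0.822).

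**Figure D5:**
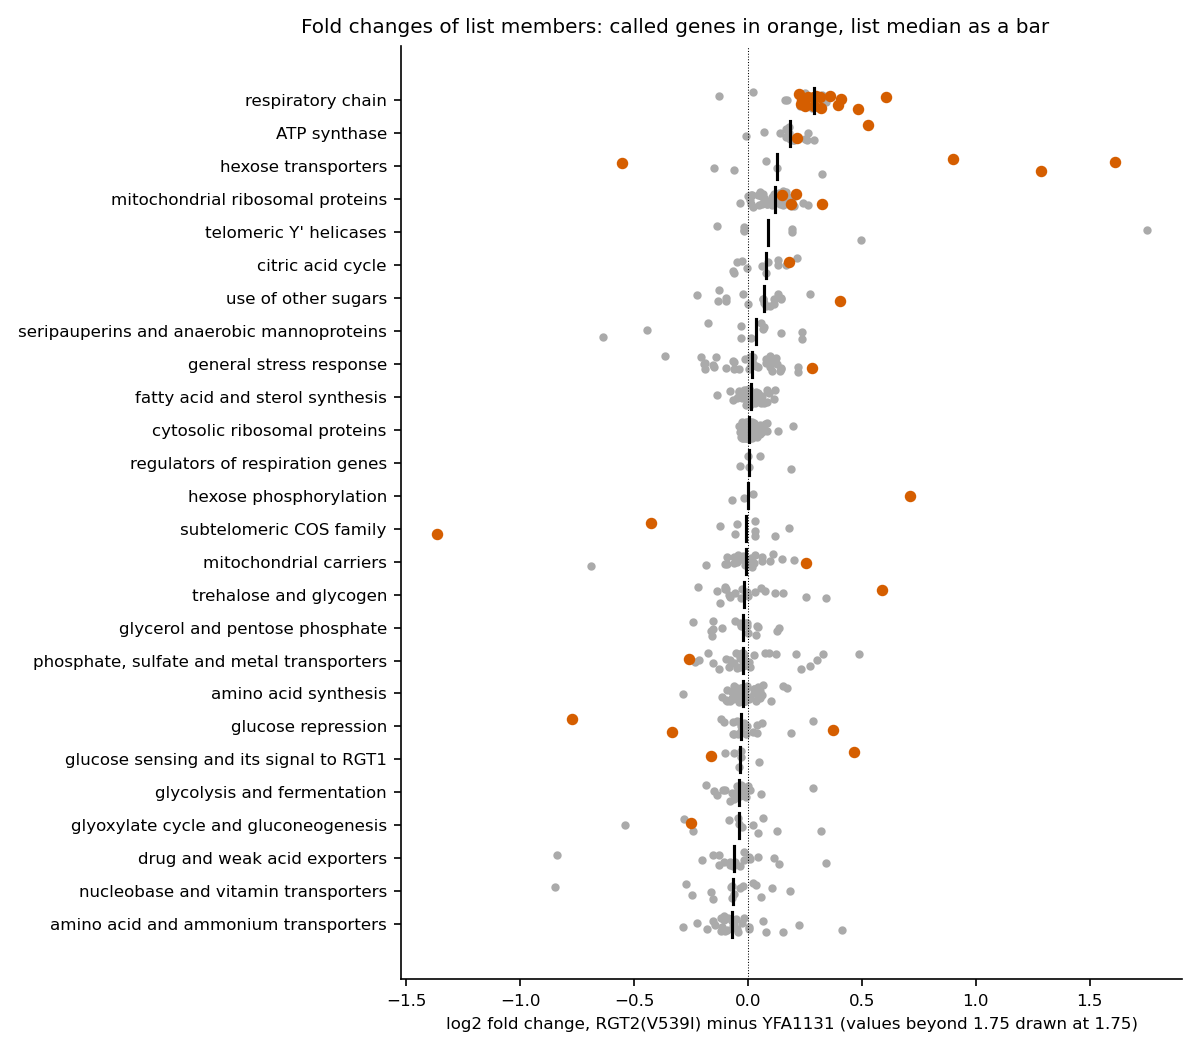
Log2 fold changes of *RGT2(V539I)* against YFA1131 (horizontal axis) for the members of 26 gene lists, with called genes in orange and the list median as a bar. Transposon genes are left out, and 1 value beyond the axis is drawn at its edge. The respiratory chain, with a median of 0.29, holds 15 of the called genes.

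The repeated *COS* and Ty genes held 3 calls. Of 10 tested *COS* genes, a subtelomeric family of membrane proteins, 2 were lower, against 0.21% of all genes tested. *COS8* stood at 37.1, 31.1, 34.0, 41.8 and 34.1 CPM against 39.3, 38.8, 39.5, 47.0 and 46.5, lower in 5 of 5 pairs (-0.43, SE 0.10, adjusted p = 0.0645), and -0.08 against YFA1130. Its counts were not whole in 25 of 25 libraries. *COS12*, whose counts were whole, was at 0.264 to 1.09 CPM against 1.04 to 1.92 (-1.37, SE 0.30, adjusted p = 0.0495), and -1.01 against YFA1130. Each of these calls was lost without 6 of the 10 libraries. *COS2* and *COS3* had identical counts, which shows that reads were shared. Summed, the family was at 381 to 456 CPM and 358 to 470 CPM.

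The 8 helicase genes of the telomeric Y′ elements had no call. Their summed levels were 552 to 743 CPM in *RGT2(V539I)* and 556 to 724 in YFA1131. All 8 had divided counts, and 5 had a partner with identical counts. The value of 3.36 for *YRF1-6* (adjusted p = 0.317) rests on 0 to 2.38 CPM. Ty transposon genes made up 90 entries, of which 58 were tested, 55 of them with counts that were not whole in at least 20 libraries. The summed level was 22952 to 31074 CPM against 27296 to 30692, lower in the edited strain in 4 of 5 pairs. The 1 call, *YML045W-A*, was at 0 to 0.693 CPM in 4 *RGT2(V539I)* libraries and 6.08 in that of pair 4, and at 0 to 0.0884 in YFA1131, so no fold is given. The 12 tested seripauperin and mannoprotein genes had no call, with *TIR1* (-0.64, adjusted p = 0.767) and *TIR2* (-0.18, adjusted p = 0.977) nearest.

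The rest of the called genes belong to no list above. *YHB1*, a flavohaemoglobin that removes nitric oxide, *REE1*, *YML131W* and *ISF1* were higher (0.20, 0.22, 0.25 and 0.75), and *ARI1*, an aldehyde reductase, *YKR075C* and *YOL014W* lower (-0.21, -0.66 and -0.56). Against YFA1130 the higher genes were at 0.05, 0.19, 0.25 and 0.37, and the lower ones at -0.30, -0.26 and -0.26. In the order named, the calls were lost without 6, 2, 4, 6, 2, 8 and 6 of the 10 libraries. The *ISF1* libraries overlapped, at 1.46 to 8.80 CPM against 1.06 to 6.35. *YLR294C* (0.30), from general knowledge a doubtful reading frame overlapping *ATP14*, was higher too. It also has no position in the RefSeq table and had whole counts in each library. *YIR042C* was at 0.693 to 1.50 CPM against 0.284 to 0.618, without overlap (1.46, adjusted p = 0.0580). Its value against YFA1130 was -0.61, so its direction depends on the wild type.

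Set against YFA1130, 59 of the 61 genes kept their sign, 17 were called and 53 had a smaller absolute change. The 61 genes were chosen by their difference from YFA1131, and both comparisons use the same *RGT2(V539I)* libraries. Kept signs and smaller changes therefore follow in part from the choice. The median of the 49 higher genes was 0.30 against YFA1131 and 0.19 against YFA1130. The exceptions to the sign were *YIR042C* and *MRP51*. Among the transporter genes, *HXT4*, *HXT7*, *HXT2* and *HXT1* gave 1.60, 1.15, 1.20 and -0.31 against YFA1130. YFA1131 and YFA1130 themselves differed at 8 genes by the FDR.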

How the data were processed

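The authors trimmed reads with Trimmomatic 0.38 (base calls by bcl2fastq 2.20.0.422, per the labels) and estimated counts per gene with kallisto on sacCer3 (R64) transcripts. The deposited values are these estimated counts, not normalized, of which 6.33% were not whole. They were rounded here. Genes with a count above 0 in every library were tested with edgeR 4.0.16's quasi-likelihood test (glmQLFit, glmQLFTest) after TMM scaling, over all 25 libraries, with terms for strain, harvest, RNA isolation and library preparation batch and 2 surrogate variables (sva). P-values were adjusted by the Benjamini-Hochberg method over the 5713 genes. The standard error (SE) was derived from the test, as the absolute log2 fold change divided by the square root of its F statistic. The authors' filter on transcript integrity was not applied. CPM values use TMM-scaled library sizes. Totals were 10034327 to 12444018 counts in the 10 libraries. RNA isolation batches held 1 library of each strain, so replicate numbers pair the libraries, and this block is in the fit. Deviations from strain means correlated across genes by 0.34, 0.45, 0.05, 0.40 and -0.09 in pairs 1 to 5. Library preparation batches 1 and 2 held 1 and 4 *RGT2(V539I)* libraries and 3 and 2 of YFA1131. RefSeq named 6025 of 6713 identifiers. Gene lists and members were chosen with earlier results of these data known.

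Each called gene is named. Full statistics are given for up to 4 called members of a list, the 12 largest changes at 5 CPM or more in 5 of 5 pairs, *RGT2*, *ARF2* and *RPL35B*, and 2 members of each list without a call. The alternatives were DESeq2 1.42.0, other scaling, filters, terms, libraries and controls, and each library left out.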

Additional observations from a re-analysis of the deposited data

Results flagged for a closer look

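In 8 of 130 groups of 5 libraries examined, 1 library stood far from the other 4 (Dixon's test), where chance gives about 1 in 20. No explanation was tested. In *RGT2(V539I)*, pair 4, the strain's 1 library of harvest batch 1, was highest for *HXK1* (343 CPM against 112 to 178 in the others), for *YML045W-A* (6.08 against 0 to 0.693) and for the summed citric acid cycle (5941 against 4200 to 4662). Pair 3 of the same strain was highest for the summed mitochondrial ribosomal proteins (2865 against 2513 to 2585) and lowest for the summed phosphate, sulfate and metal transporters (12220 against 14300 to 14830). In YFA1131, pair 3 was highest for *ATP5* (130 against 114 to 117), pair 1 for the summed hexose transporters (6147 against 5100 to 5403), and pair 2 for *YML045W-A* (0.0884, with the others at 0).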

How the results depend on the processing

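The 61 calls (49 higher, 12 lower) became 46 (39 and 7) with DESeq2, 37 (31 and 6) without surrogate variables, 36 (27 and 9) with library preparation at 4 levels, 13 (10 and 3) with only the 10 libraries of both strains and 4 (2 and 2) with genotype as the only term. With YFA1130 as the control there were 23 (15 and 8), with the mean of both wild types 36 (29 and 7), without harvest batch 1 17 (9 and 8) and without pair 5 16 (13 and 3). Without 1 library there were 17 to 58 (12 to 44 higher, 4 to 14 lower). Without the replicate block, which pairs libraries by RNA isolation batch, there were 52 (41 and 11). Of the respiratory chain, 15 calls became 0 with genotype only, 4 with the 10 libraries, 3 against YFA1130, 2 without harvest batch 1, 5 without pair 5 and 5 to 14 without 1 library. *CIT2* turned to 0.018 with the 10 libraries, and *YIR042C* to -0.61 and *MRP51* to -0.0054 against YFA1130. The cause of these changes was not tested. Relative log expression scaling (65 calls) and both other filters on low counts (50 and 65) stayed within 1.5 times the count. Of all genes tested, 385 had an unadjusted p under 0.05. Each genotype was 1 strain, so a further difference between the strains cannot be told apart from the edit.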
